A study of Mus musculus with 8 samples.

Results

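Translation initiation factors are the proteins that bring the initiator methionyl-tRNA, the small ribosomal subunit and an mRNA together and place the ribosome on the start codon. The genes described here are those whose symbol begins with Eif and a digit from 1 to 6, without pseudogenes, without the eIF4E transporter Eif4enif1 and without the Y-linked Eif2s3y. Of the 37310 gene identifiers measured, 53 met this definition, 5 further symbols were left out as pseudogenes and 2 by name. One of the 53 is not protein coding: Eif2c5 is annotated as a lincRNA, and Eif2c is an older name for Argonaute genes. The other 52 are protein coding. They comprise 5 genes of the eIF1 and eIF1A type, 8 subunits of eIF2 and of its exchange factor eIF2B, 2 other proteins that bind initiator tRNA (Eif2a and Eif2d) and 4 eIF2 alpha kinases. A further 14 are eIF3 genes, 11 belong to the eIF4 class, 3 encode 4E-binding proteins and 5 are of the eIF5 and eIF6 type.

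Expression was profiled in pooled 2-cell mouse embryos, all of strain C57BL/6N. Wild-type embryos (4 pools) were compared with embryos of Gadd45a/Gadd45b double knockout (DKO) mice (4 pools), which lack a pair of stress-inducible genes linked to growth arrest and DNA repair. Each pool held 23 to 35 embryos of a single litter, collected 20 h after the plug from superovulated, naturally mated females of 3 to 4 weeks. DKO embryos came from DKO females, so loss in the oocyte and loss in the embryo cannot be told apart. In pooled embryos, less RNA per embryo and fewer embryos carrying an RNA cannot be told apart either.

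In initiation, eIF2 bound to GTP carries the initiator tRNA to the small subunit, where eIF1, eIF1A, eIF3 and eIF5 hold the scanning complex together. The eIF4F complex (the cap-binding protein eIF4E, the scaffold eIF4G and the helicase eIF4A) recruits the mRNA, and 4E-binding proteins block eIF4E from joining the scaffold. Kinases that phosphorylate eIF2 alpha slow initiation by trapping eIF2B, which otherwise recharges eIF2 with GTP. In the mouse 2-cell embryo, eIF1A-type genes are known as early transcripts of the newly activated genome, while oocyte mRNAs are being degraded.

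The libraries held 21329736 to 23919114 counts, with 18433 to 20427 genes detected and 5.86% to 8.32% of counts from mitochondrial genes. Gadd45b was at 45.3 ± 11.8 CPM (counts scaled to a common library size by TMM; SD, n = 4) in wild-type and 0.276 ± 0.244 in DKO pools, and Gadd45a at 20.0 ± 2.95 and 9.40 ± 1.69, in the direction of the labels. The edgeR adjusted p was 5.63e-07 for Gadd45b, but 0.303 for Gadd45a, of which the DKO libraries still held 163 to 247 reads. DKO replicate 1 stood apart: limma-voom gave it a quality weight of 0.365, against 0.786 to 2.08 for the other libraries. All 13 oocyte and 2-cell identity markers were tested, and their summed level ran from 3437 to 6376 CPM in wild-type and from 5334 to 9966 CPM in DKO pools. The highest of these 8 sums belonged to DKO replicate 1 and the lowest to wild-type replicate 4. Most of the sum in DKO replicate 1 came from Btg4 (5899 CPM) and Oosp1 (2077 CPM). That pool was the highest library for 6 of the 13 markers and the lowest for 2. Cumulus and granulosa markers summed to 81.4 to 155 CPM, with 5 of 14 tested and Ptx3, Foxl2, Amh and Inhba at 0 in all 8 libraries. Most of each sum was a single gene, Nr5a2, with 66.9 CPM in DKO replicate 1 (the lowest sum) and 144 CPM in wild-type replicate 4 (the highest). Whether the Nr5a2 RNA came from the embryos or from attached cells was not tested. Sperm markers summed to 0.518 to 2.37 CPM, with 1 of 8 tested and Smcp and Prm3 at 0 throughout.

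Of the 53 genes, 51 had enough counts to be tested, among 14970 genes in all. The exceptions were Eif4ebp3, with 1 count in all libraries together, and Eif2c5, with 0 counts, which allows a level of up to 0.0166 CPM (3 counts over the 8 libraries, counting error only). The family took 1.75% ± 0.148 of a library's counts in wild-type and 1.61% ± 0.172 in DKO pools (SD, n = 4). On the CPM scale, 30 members had a mean above 100, 18 lay between 10 and 100 and 5 were at or under 10. The 5 members with the most counts held 44.3% of the family's CPM. Since long mRNAs yield more reads, genes are compared with each other only as CPM per kilobase of exon. On that scale Eif1, which guards start codon choice, stood highest at 626 in wild-type and 685 in DKO pools. It was followed by Eif5a, a factor that helps ribosomes through difficult peptide bonds (478 and 479), by the cap-binding Eif4e (379 and 303) and by Eif5, the GTPase activator of eIF2 (295 and 261). Subunits of one complex differed widely in level. The eIF2 alpha gene Eif2s1 stood at 226 CPM per kilobase in wild-type pools, the beta gene Eif2s2 at 129 and the gamma gene Eif2s3x at 7.85. Within eIF3, Eif3h was highest (231 in wild-type, 187 in DKO) and Eif3j2 lowest (0.946 and 0.889). The levels of Eif2s3x and Eif3j2 are uncertain. The handling of reads that also match Eif2s3y, left out here, or Eif3j1 is unknown.

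**Figure D1:**
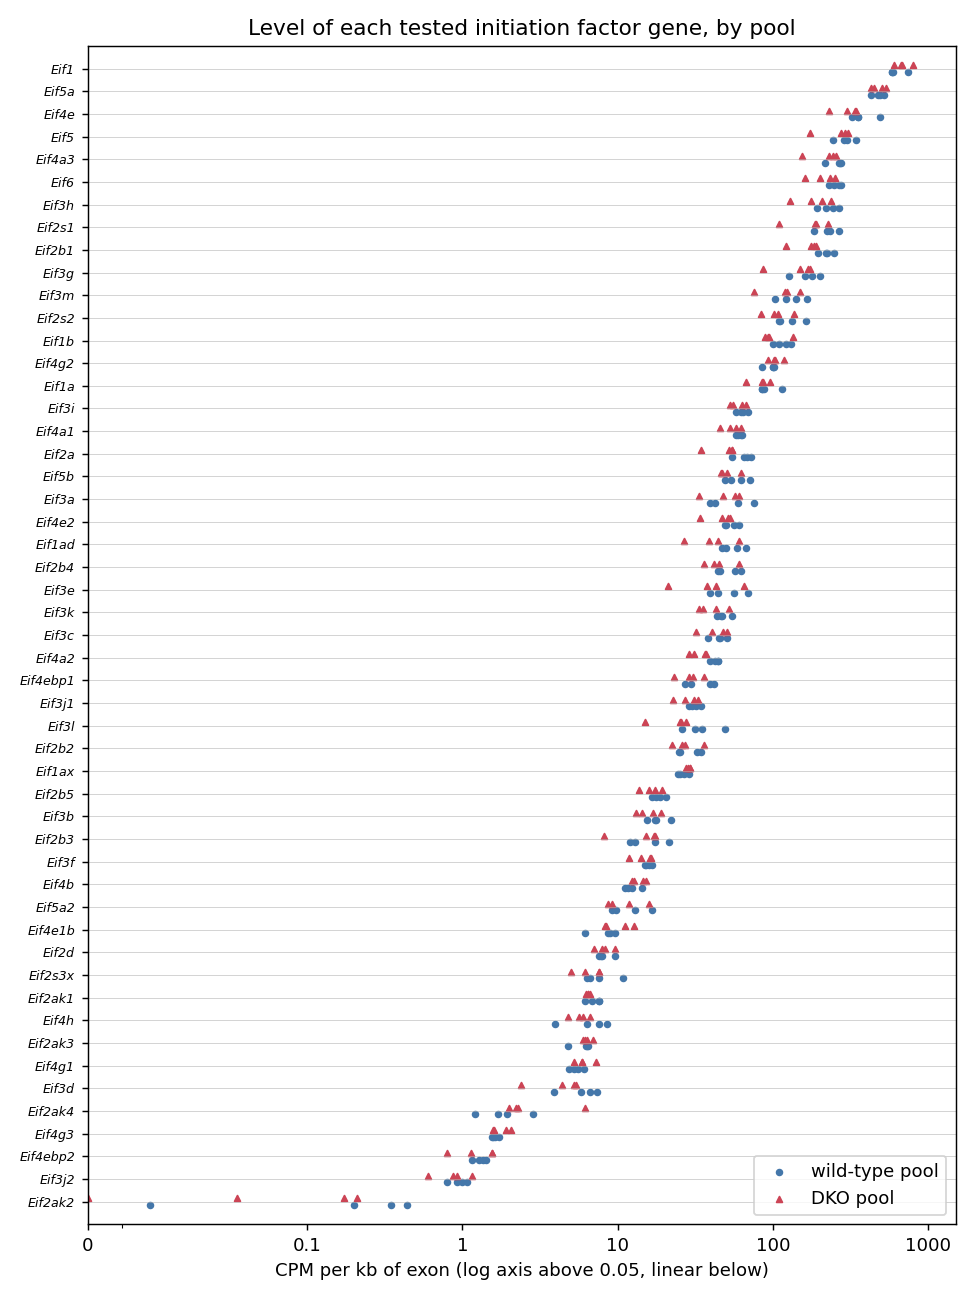
Level of each initiation factor gene in CPM per kilobase of exon, on a log axis, in the 4 wild-type and 4 DKO pools. The genes run from Eif1, with a mean of 626 in wild-type pools, down to Eif2ak2, whose wild-type mean is 0.252.

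No initiation factor gene passed the threshold of the comparison between genotypes. With edgeR's quasi-likelihood test and Benjamini-Hochberg adjustment over all tested genes, 0 of 51 members had an adjusted p under 0.05, and their adjusted p ran from 0.469 to 1.00. With edgeR the background was low too, as 4 of 14970 genes passed (0.0267%). DESeq2 called 0 members among 47 genes in all, and limma-voom 0 among 5. At an unadjusted p under 0.05, 4 of 51 members were lower in DKO (7.84%), against 4.44% of all genes, and 0 were higher, against 5.79%. DESeq2 and limma-voom each also had 4 members lower, where 5.53% and 5.15% of all genes were lower, and DESeq2 had 1 higher (6.35% of all genes). The 4 members that were lower with edgeR were Eif3l, Eif4a2, Eif2b1 and Eif2a. This count varied with the pool left out. It was 10 without DKO replicate 2 (6.20% of all genes), and 2, 1 and 1 without wild-type replicates 1, 2 and 4 (3.15%, 2.91% and 3.19% of all genes). Without DKO replicates 1, 3 and 4 it was 4, 4 and 3 (3.25%, 4.12% and 4.55% of all genes). Without wild-type replicate 3 it was 5 (5.98% of all genes). In 2 members, Eif2b1 and Eif4a2, all 4 DKO pools lay below all 4 wild-type pools (3.92%, against 2.55% of all genes). The opposite arrangement was found in 0 members, against 2.79% of all genes.

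Most members had a lower mean in DKO pools, though none passed the test. The log2 fold change (DKO minus wild-type) was negative in 41 of 51 tested members (80.4%), against 48.8% of all genes, and its median was −0.18, against 0.01 for all genes. The values ran from −1.23 for Eif2ak2 to 0.71 for Eif2ak4. Each member's deviation was taken from its own median over the 8 pools, in log2 units. The median of these deviations was 0.10, 0.01, −0.08 and 0.21 in wild-type and −0.36, 0.06, −0.07 and 0.02 in DKO pools. The groups overlapped. The family's median log2 CPM, a measure apart from these deviations, had an SD of 0.22 between pools of a genotype. That is a spread of single pools and not the error of a difference between genotypes. Much of this lean moved with DKO replicate 1, which was the lowest of the 8 libraries in 32 of 51 members (62.7%, against 25.0% of all genes) and the highest in 5 (9.80%, against 27.1%). Summed over the family, the level was 13108 CPM in that pool, and 17755, 15744 and 16887 CPM in DKO replicates 2, 3 and 4. Wild-type replicates 1 to 4 stood at 18281, 17293, 15439 and 20556 CPM, and overlapped with them. Without DKO replicate 1, 35 of 51 members were negative (68.6%, against 51.0% of all genes), the median was −0.09, and 4 members were lower at an unadjusted p under 0.05 (3.25% of all genes). Leaving out DKO replicate 2 gave a median of −0.27, and leaving out wild-type replicate 4 gave −0.12. For the family, DKO replicate 1 was the lowest pool and wild-type replicate 4 the highest. Their places were exchanged for the summed oocyte and 2-cell markers, a sum led by Btg4. Taken singly, DKO replicate 1 was the highest library in 6 of these 13 markers and the lowest in 2. Wild-type replicate 4 was the lowest in 6 and the highest in 1. The part of these markers in the family's lean was not tested.

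**Figure D2:**
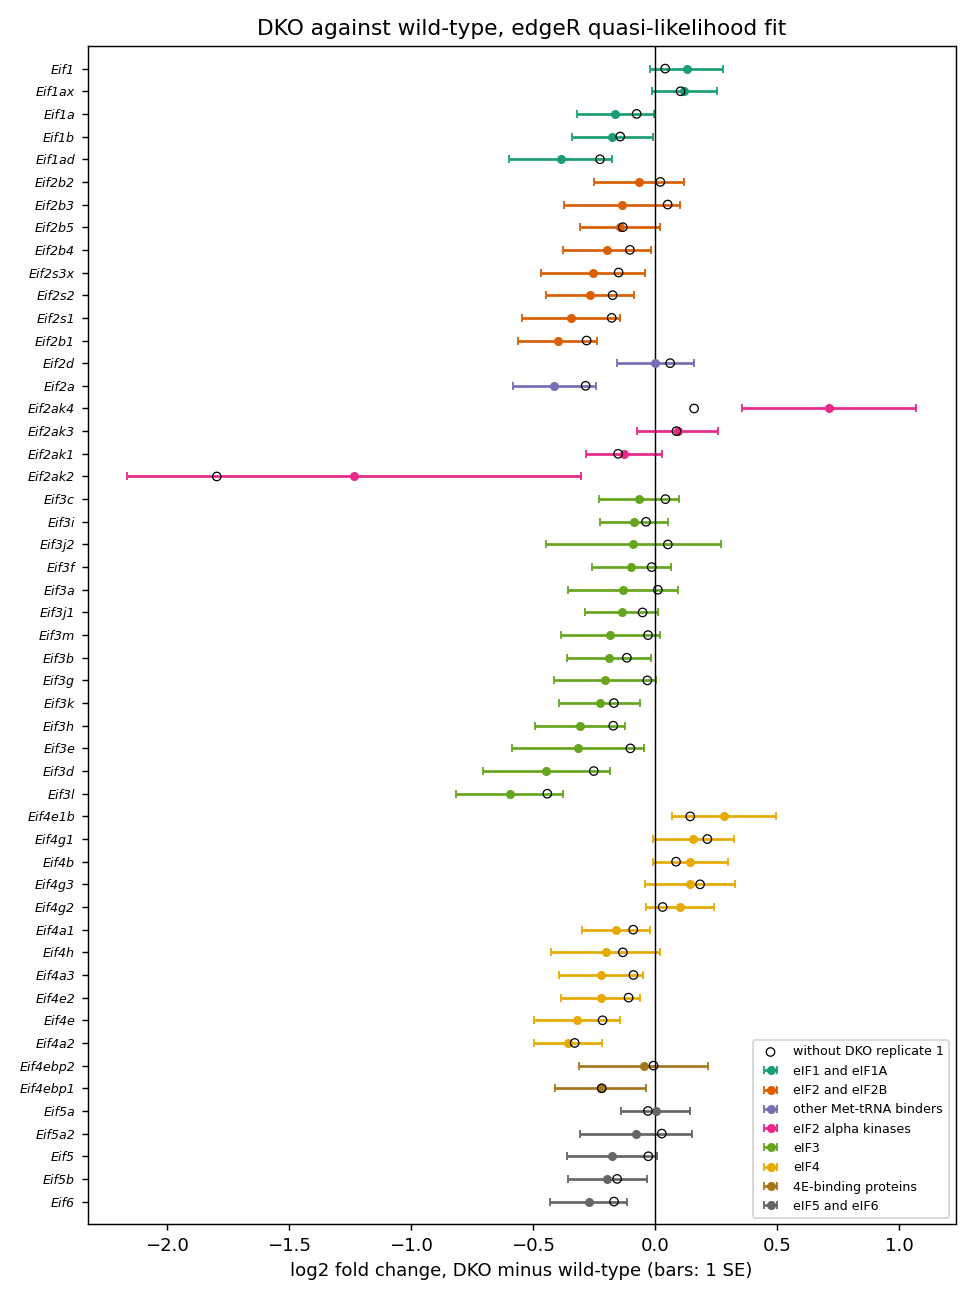
Log2 fold change (DKO minus wild-type) of the 51 tested initiation factor genes by functional class, from edgeR. Filled points are the values from all 8 pools with their standard errors, and open points the values without DKO replicate 1. Most filled points lie below 0 (41 of 51, median −0.18), as do 35 of the open points (median −0.09).

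**Figure D3:**
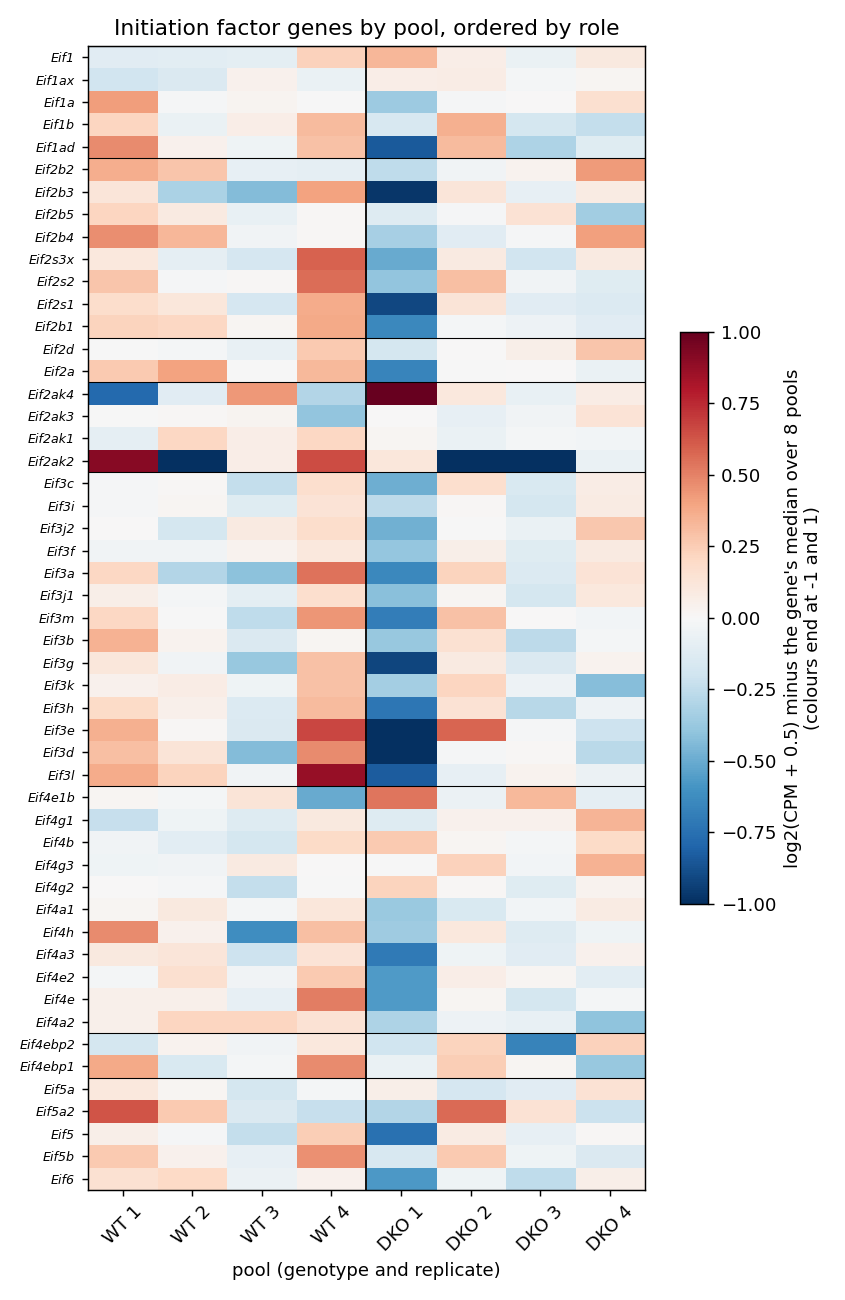
Deviation of each member's log2 CPM from its median over the 8 pools, with genes grouped by class in rows and pools in columns. The column of DKO replicate 1 holds the lowest value of the row in 32 of 51 genes, and that of wild-type replicate 4 holds the highest in 24.

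Among eIF3 genes, which encode the large scaffold on the small subunit, all 14 had negative log2 fold changes, with a median of −0.19. Without DKO replicate 1 the median was −0.04 and 11 of 14 were negative. It was −0.10 without wild-type replicate 4 and −0.30 without DKO replicate 2. DKO replicate 1 was the lowest library in 13 of the 14 genes. Eif3l, which encodes a peripheral subunit, had the smallest p of the family. Its level was 126, 114, 95.2 and 179 CPM in the wild-type pools and 54.6, 92.2, 99.9 and 93.5 CPM in the DKO pools. DKO replicate 1 was far below the rest, and DKO replicate 3 lay above the lowest wild-type pool. This amounted to a log2 fold change of −0.60 ± 0.22 (± is the SE from edgeR, as for all log2 fold changes; adjusted p = 0.469), and of −0.44 without DKO replicate 1. Eif3a, the core subunit on which much of the complex is built, was at 524, 370, 342 and 661 CPM in wild-type and 290.0, 529, 414 and 498 CPM in DKO pools. Its wild-type pools alone spanned nearly the whole range, and its log2 fold change of −0.13 ± 0.23 was 0.01 without DKO replicate 1. Eif3d, which can bind the cap itself, had −0.45 ± 0.26, Eif3e −0.32 ± 0.27 and Eif3h −0.31 ± 0.18, each with DKO replicate 1 as the lowest library. Nearest to 0 was Eif3c at −0.07 ± 0.17. Eif3j1 and its copy Eif3j2 share 99.74% of their aligned coding bases, so reads may pass between them and their counts are uncertain.

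Many mRNAs of the translation machinery begin with a C followed by a run of pyrimidines, the 5′ terminal oligopyrimidine tract through which mTOR controls their translation. The first bases of the transcripts were therefore read from RefSeq promoter sequences (GRCm38.p6), with 18 bases before and 12 from the transcription start. Shown are Eif3f and Eif2s3x, in which a start site carries such a tract, and Eif3l, which lacks it at this site and had the smallest p of the family. Capitals mark a C at the first transcribed base followed by at least 4 pyrimidines, read on the strand of the gene.
Eif3f (chr7:108934397-108934426, plus strand): tcttctgttctaggctctCTCTCTTTCTCg
Eif2s3x (chrX:94212640-94212669, minus strand): cggctgccgagcattttcCTTTTCTCTCCg
Eif3l (chr15:79075205-79075234, plus strand): caggcgcggagttcttcttccgctctctcc
Of 51 start sites listed for 41 coding members, 2 carried the tract (3.92%), against 823 of 32851 start sites of all genes (2.51%). The count holds for the annotated first base only, and a start a few bases away would miss a tract. The start sites used in these embryos were not measured. The 2 members with the tract had log2 fold changes of −0.10 ± 0.16 (Eif3f) and −0.25 ± 0.21 (Eif2s3x).

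The 8 genes of eIF2 and eIF2B all had negative log2 fold changes, with a median of −0.23 (−0.14 and 6 of 8 negative without DKO replicate 1). Eif2b1 encodes the alpha subunit of eIF2B, the part of the regulatory core that senses phosphorylated eIF2. It stood at 576, 569.9, 501 and 641 CPM in wild-type pools and at 315, 487, 477 and 456 CPM in DKO pools. No DKO pool reached the lowest wild-type pool, although DKO replicate 2 came close. The log2 fold change was −0.40 ± 0.16 (edgeR adjusted p = 0.471), and −0.28 without DKO replicate 1. Eif2s1, the subunit that the stress kinases phosphorylate, was at 1154, 1099, 907 and 1321 CPM in wild-type and 542, 1115, 944 and 926 CPM in DKO pools. Of its DKO pools, 3 lay within the wild-type range, and its log2 fold change was −0.35 ± 0.20 (edgeR adjusted p = 0.538), and −0.18 without DKO replicate 1. Eif2s2 had −0.27 ± 0.18 and the catalytic eIF2B subunit Eif2b5 −0.14 ± 0.16.

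Of the other tRNA binders, Eif2a encodes a protein that can deliver initiator tRNA without GTP and is distinct from the eIF2 alpha subunit. Its level was 400.0, 443, 334 and 419 CPM in wild-type pools and 211, 333, 335 and 320.0 CPM in DKO pools. The groups touched, with DKO replicates 2 and 3 beside the lowest wild-type pool, and DKO replicate 1 lay far below. The log2 fold change was −0.41 ± 0.17 (edgeR adjusted p = 0.471), and −0.28 without DKO replicate 1. Eif2d, which acts in ribosome recycling and re-initiation, had 60.9 ± 6.55 CPM in wild-type and 60.9 ± 8.04 CPM in DKO pools (SD, n = 4).

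The 4 eIF2 alpha kinases showed the widest spread of any class. Eif2ak4 encodes GCN2, which senses uncharged tRNA. The wild-type libraries held 207, 315, 478 and 284 reads of it and the DKO libraries 1026, 385, 336 and 372. The high mean of the DKO group came from DKO replicate 1, since its other 3 pools (14.9 to 16.9 CPM) lay inside the wild-type range of 8.94 to 21.4 CPM. The log2 fold change of 0.71 ± 0.36 (edgeR adjusted p = 0.491) was 0.16 without that pool. Eif2ak2, which encodes the double-stranded RNA sensor PKR, was barely detected, with 52, 2, 23 and 40 reads in wild-type pools against 24, 0, 5 and 20 in DKO pools. Its log2 fold change of −1.23 ± 0.93 had the largest standard error of the family. Eif2ak1, the heme-regulated kinase, stood at 40.05 ± 3.94 CPM in wild-type and 36.6 ± 0.941 CPM in DKO pools (−0.13 ± 0.16). Eif2ak3, which encodes the endoplasmic reticulum stress kinase PERK, stood at 35.8 ± 4.77 and 38.2 ± 2.54 CPM (0.09 ± 0.17).

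The eIF4 class was divided, with 6 of 11 genes negative and a median of −0.16 (−0.09 without DKO replicate 1). The lower values belonged to the genes of the cap-binding proteins Eif4e and Eif4e2, the helicases Eif4a1, Eif4a2 and Eif4a3, and the helicase cofactor Eif4h. The scaffold genes Eif4g1 (0.16 ± 0.17), Eif4g2 (0.10 ± 0.14) and Eif4g3 (0.14 ± 0.18), the helicase cofactor Eif4b (0.14 ± 0.15) and the oocyte-type cap-binding gene Eif4e1b had positive values. Eif4a2 was the second member without overlap between genotypes. It measured 212, 237, 237 and 225 CPM in wild-type pools and 165, 197, 194 and 155 CPM in DKO pools. Here DKO replicate 4, not replicate 1, was the lowest pool. The log2 fold change was −0.36 ± 0.14 (edgeR adjusted p = 0.469), and −0.33 without DKO replicate 1. Its paralog Eif4a1, with 90.15% of aligned residues identical, had 264 ± 11.4 CPM in wild-type and 236 ± 31.0 CPM in DKO pools (−0.16 ± 0.14).

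Per kilobase, Eif4e stood highest of the eIF4 class, at 379 in wild-type and 303 in DKO pools. It was at 2123, 2123, 1937 and 2922 CPM in wild-type and 1380, 2070, 1815 and 2025 CPM in DKO pools. Of its DKO pools, 2 lay within the wild-type range, and its log2 fold change was −0.32 ± 0.18 (edgeR adjusted p = 0.523). It was −0.18 without wild-type replicate 4 and −0.22 without DKO replicate 1. Eif4e1b was at 20.2, 19.6, 21.9 and 13.9 CPM in wild-type and 29.0, 19.1, 25.1 and 18.6 CPM in DKO pools. Its wild-type replicate 4 was the lowest and DKO replicate 1 the highest of the 8, and the log2 fold change was 0.28 ± 0.21 (edgeR adjusted p = 0.623), against 0.14 when DKO replicate 1 was left out and 0.15 when wild-type replicate 4 was. Eif4g1 was at 35.6, 40.6, 38.1 and 44.7 CPM in wild-type and 38.2, 43.0, 42.9 and 52.9 CPM in DKO pools. Among scaffolds, Eif4g2, whose product lacks the site for eIF4E, stood highest per kilobase at 97.0 in wild-type and 104 in DKO pools, against 5.44 and 6.06 for Eif4g1.

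Of the 4E-binding proteins, Eif4ebp1 was at 86.2, 59.7, 65.5 and 92.3 CPM in wild-type pools and 63.4, 78.6, 67.2 and 50.9 CPM in DKO pools. The groups overlapped over most of their range (−0.22 ± 0.19, edgeR adjusted p = 0.650; −0.12 without wild-type replicate 4 or without DKO replicate 4). Eif4ebp2 was much lower per kilobase, at 1.30 in wild-type and 1.26 in DKO pools, against 34.6 and 29.6 for Eif4ebp1.

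**Figure D4:**
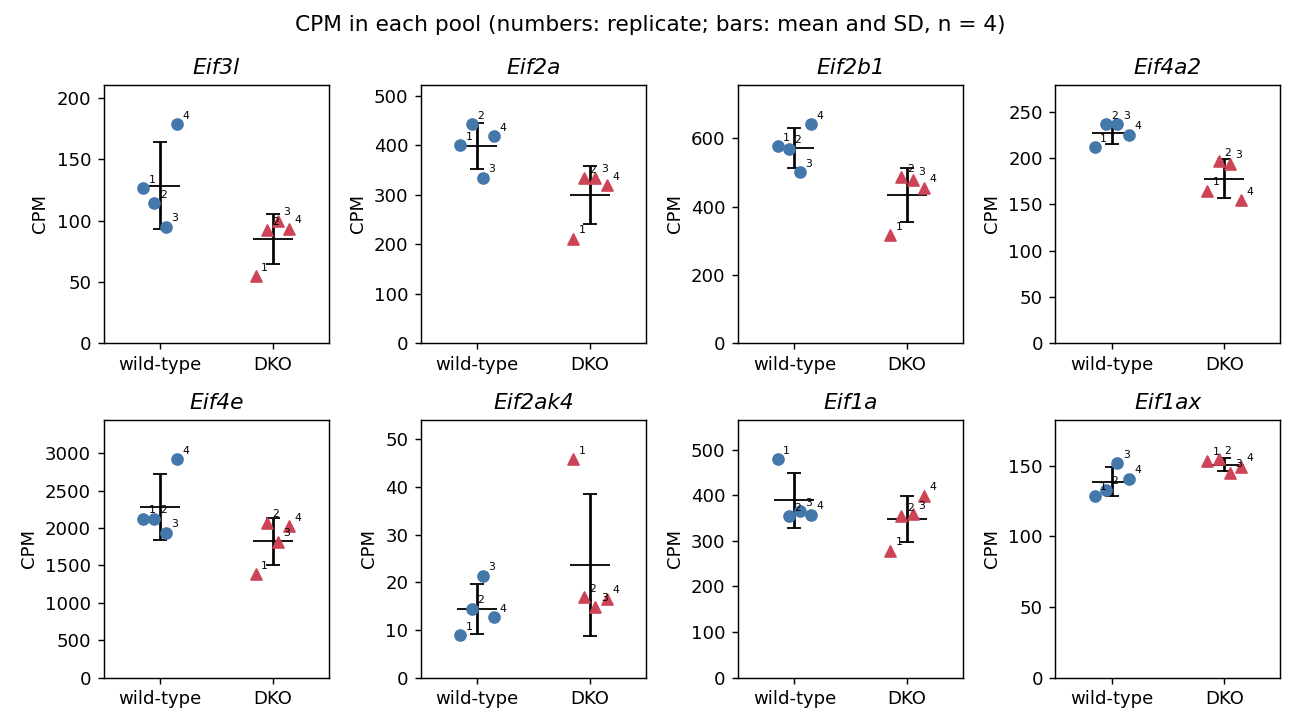
CPM of 8 initiation factor genes in each pool, wild-type and DKO, with the group mean and SD. The groups do not overlap in Eif2b1 and Eif4a2 and overlap in the other 6. The high DKO point of Eif2ak4 (45.9 CPM) is replicate 1.

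The eIF1 and eIF1A genes had 3 negative values of 5. Eif1a was at 479, 354, 365 and 357 CPM in wild-type pools and at 278, 354, 359 and 399 CPM in DKO pools. Apart from wild-type replicate 1 and DKO replicate 1 the pools lay close together, and the log2 fold change was −0.16 ± 0.16 (edgeR adjusted p = 0.712). Leaving out either of these pools brought it nearer to 0, to −0.05 and −0.08. Eif1ax, the X-linked gene for nearly the same protein (98.61% of 144 aligned residues identical), was at 129, 133, 152 and 141 CPM in wild-type and 154, 155, 145 and 149 CPM in DKO pools. Its log2 fold change was 0.12 ± 0.13 (edgeR adjusted p = 0.741). Per kilobase Eif1a stood above Eif1ax in every pool, with a ratio of 3.58 ± 0.760 in wild-type and 2.92 ± 0.467 in DKO pools. Eif1 was at 1227, 1234, 1237 and 1558 CPM in wild-type and 1670, 1392, 1264 and 1419 CPM in DKO pools (0.13 ± 0.15). In contrast to most members, DKO replicate 1 was its highest pool, and the value was 0.04 without it. Eif1ad, a nuclear protein with an eIF1A-like domain, was at 187, 139, 131 and 165 CPM in wild-type and 75.0, 168, 109 and 124 CPM in DKO pools. DKO replicate 2 exceeded 3 of the 4 wild-type pools, and the log2 fold change was −0.39 ± 0.21 (edgeR adjusted p = 0.522). Single pools moved it to −0.23 (without DKO replicate 1) or −0.61 (without DKO replicate 2).

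A cluster of eIF1A-like genes on chromosome 12 carries other symbols and lies outside the family as defined, but belongs to the same type. Gm8300, whose coding sequence is 95.14% identical to that of Eif1a over the aligned bases, was at 108, 170, 253 and 130 CPM in wild-type pools and 331, 200, 254 and 256 CPM in DKO pools. All DKO pools exceeded 3 of the wild-type pools. DKO replicate 1 was the highest, and the log2 fold change was 0.66 ± 0.23 (edgeR adjusted p = 0.469). Gm2016 had 0.38 ± 0.23, BB287469 0.52 ± 0.27, Gm5662 0.22 ± 0.22 and Gm4027 0.23 ± 0.29, so all 5 were positive while Eif1a was negative. None passed the threshold. The copies share at least 97.22% of coding bases with Gm8300, and the handling of reads that match several of them is unknown here, so their separate values are uncertain.

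**Figure D5:**
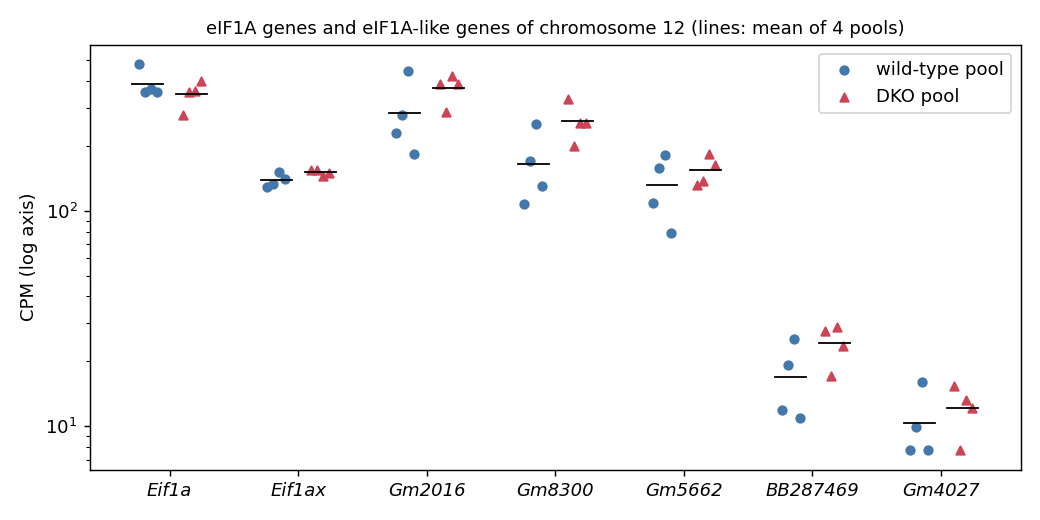
CPM of Eif1a, Eif1ax and eIF1A-like genes of chromosome 12 in each wild-type and DKO pool. For Gm8300 the DKO pools (200 to 331 CPM) lie above 3 of the 4 wild-type pools, while the genotypes overlap for Eif1a and Eif1ax.

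Late initiation is represented by eIF5 and eIF6 genes, of which 4 of 5 were negative with a median of −0.18 (−0.03 without DKO replicate 1). Eif6, which keeps the ribosomal subunits apart, was at 722, 743, 622 and 670 CPM in wild-type and 435, 629, 544 and 675 CPM in DKO pools (−0.27 ± 0.16, edgeR adjusted p = 0.538; −0.17 without DKO replicate 1). Eif5 was at 2054, 1964, 1674 and 2347 CPM in wild-type and 1175, 2088, 1866 and 1986 CPM in DKO pools. Only DKO replicate 1 left the wild-type range of Eif5, whose log2 fold change was −0.18 ± 0.19 (edgeR adjusted p = 0.730) and came to −0.03 without that pool. The subunit-joining factor Eif5b had −0.20 ± 0.16, and Eif5a had 0.00 ± 0.14 with 1137 ± 89.9 CPM in wild-type and 1138 ± 116 CPM in DKO pools (SD, n = 4).

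Ratios per kilobase between 16 pairs of partners or paralogs were chosen after the levels had been seen. In 15 of them the genotypes overlapped. The exception was Eif4e over Eif4g1, the cap-binding protein over its scaffold, with ratios of 72.5, 63.6, 61.8 and 79.4 in wild-type and 43.9, 58.5, 51.4 and 46.5 in DKO pools. The means were 69.3 ± 8.20 and 50.1 ± 6.43 (SD, n = 4), with every DKO pool below every wild-type pool. The exact two-sided permutation p was 0.0286, the smallest that 4 against 4 pools can give, and 0.457 after Benjamini-Hochberg adjustment over the 16 ratios.

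Lists of related genes also held 0 genes past the threshold. Over all tested genes, 48.8% were negative, and 4.44% were lower and 5.79% higher at an unadjusted p under 0.05 (edgeR). Leaving out DKO replicate 1 gave 3.25% lower and 2.46% higher at that p. All 4 DKO pools lay below all wild-type pools in 2.55% of all genes, and above them in 2.79%. Of 15 tested elongation and release factor genes, 9 were negative, with a median of −0.09 and 2 lower at an unadjusted p under 0.05 (13.3%). Without DKO replicate 1 the median was about 0, with 8 negative and 1 gene under 0.05. The 2 were the exchange factor subunit Eef1b2 (−0.36 ± 0.15) and the recycling factor Abce1 (−0.64 ± 0.28). Of 25 tested cap, poly(A) and scanning partners, 12 were negative, with a median of 0.07, and 2 were higher at an unadjusted p under 0.05 (8.0%). Without DKO replicate 1 the median was −0.01, 13 were negative and 1 was higher at that p. One was the scanning helicase gene Ddx3x, with 386, 375, 410.3 and 381 CPM in wild-type and 656, 450.3, 474 and 459 CPM in DKO pools. All of its DKO pools lay above all wild-type pools (0.39 ± 0.15, edgeR adjusted p = 0.469). Eif4enif1, the eIF4E transporter gene left out of the family, likewise had no overlap (0.26 ± 0.14, edgeR adjusted p = 0.506). The second gene under 0.05 was Paip1, a partner of poly(A)-binding protein (0.46 ± 0.19). Of 11 genes of mTOR signalling, which frees eIF4E from 4E-binding proteins, 8 were negative, with a median of −0.14 (−0.08 without DKO replicate 1). The smallest p was that of Akt1s1 (−0.63 ± 0.27, edgeR adjusted p = 0.476). This list mixes activators of mTOR with inhibitors such as Akt1s1 and Tsc1, so the count of negative values gives no direction of signalling. The 14 tested genes of the response to eIF2 phosphorylation divided evenly, 7 negative and 7 positive with a median of 0.00. None of these 14 had an unadjusted p under 0.05, and the smallest p was that of the cystine transporter gene Slc7a11 (0.54 ± 0.32). Of 19 measured markers of early genome activation, which include Eif1a and Eif1ax of the family and the 5 eIF1A-like genes, 6 were negative and the median was 0.15. At an unadjusted p under 0.05 (edgeR), 1 of the 19 was higher and 1 lower (5.26% each). Without DKO replicate 1, 3 were higher and 1 lower at that p, with 7 negative and a median of 0.13. For the 17 outside the family, with all 8 pools, 5 were negative and the median was 0.20. The smallest p was that of Tdpoz4, a gene of the 2-cell stage, with 33.0, 25.1, 36.5 and 27.8 CPM in wild-type and 10.1, 22.5, 21.7 and 12.1 CPM in DKO pools. All of its DKO pools lay below all wild-type pools (−0.88 ± 0.26, edgeR adjusted p = 0.469).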

How the data were processed

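For each pool the authors deposited a table of raw counts per gene (whole numbers). Per the labels' protocols, polyA RNA was amplified in 11 PCR cycles as cDNA and 11 as libraries, without molecular identifiers, and read as single reads of 85 cycles on 1 flow cell. Per the submitters' processing notes, the authors used STAR 2.5.2b, featureCounts 1.5.1, DESeq2 1.18.1, bcl2fastq 2.19.1 and FastQC 0.11.5 with builds NCBIM37 and mm9. Settings for strand and repeated matches are not given in the sources used here.

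Symbols (for 32620 of 37310 identifiers), exon lengths and coding sequences came from GENCODE M21 (GRCm38), which is newer than the counts' build. After filterByExpr and TMM scaling, genotypes were compared by edgeR 4.0.16 under R 4.3.3 (robust quasi-likelihood, Benjamini-Hochberg over 14970 genes, threshold 0.05, all 8 pools, no covariates). The test was also run on simulated counts, and no result given here rests on that run. A prior count of 2 was used for log2 CPM, and CPM include the TMM factors. Pools are separate litters. Family members, gene lists and ratios were chosen with earlier results of these data known. Named in full were the genes of smallest p, the highest and smallest-p member of each class, members without overlap, Eif1a, Eif1ax, Eif4e, Eif4e1b, Eif4g1, Eif4ebp1 and Eif2s1, and the smallest-p gene of each outside list; the remaining names were picked with their values in view. Alternatives were DESeq2 1.42.0, limma-voom (limma 3.58.1), RLE, upper-quartile or library-size scaling, no filter, a mean CPM of 10 or more, an adjusted p under 0.1, a replicate block, embryos per pool as a covariate, and each pool left out in turn.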

Additional observations from a re-analysis of the deposited data

Results flagged for a closer look

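In each genotype, the pool farthest from the others was compared with the spread of its group for the 51 tested genes (102 groups), where chance alone marks about 1 group in 20. There were 9 such pools. In DKO replicate 1, Eif2ak4 was high at 45.9 CPM, while Eif2a at 211 CPM and Eif3l at 54.6 CPM were low. DKO replicate 2 was high for Eif1b at 151 CPM. Wild-type replicate 3 was low for Eif4g2 at 869 CPM and for the exon junction helicase gene Eif4a3 at 459.6 CPM. Wild-type replicate 4 was low for Eif2ak3 at 28.7 CPM and high for Eif1 at 1558 CPM. Wild-type replicate 1 was high for Eif1a at 479 CPM.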

How the results depend on the processing

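Under 17 alternative settings and with the threshold at an adjusted p of 0.1, 0 members were called. The family's median log2 fold change stayed negative, from −0.27 (without DKO replicate 2) to −0.09 (without DKO replicate 1) with a pool left out and from −0.21 to −0.11 otherwise. Members lower at an unadjusted p under 0.05 numbered 10 without DKO replicate 2 (19.6%, against 6.20% of all genes). They numbered 2, 1 and 1 without wild-type replicates 1, 2 and 4 (3.92%, 1.96% and 1.96%, against 3.15%, 2.91% and 3.19%). With any other pool left out there were 3 to 5 (5.88% to 9.80%, against 3.25% to 5.98%). Alternatives that kept all 8 pools gave 4 or 5 (7.69% to 9.80%, against 3.33% to 6.61%). That count thus varied with the pool left out. Members without overlap numbered 3 to 9 with a pool left out, where fewer pools make separation easier: the 9 (17.6%, without wild-type replicate 3) stood beside 13.2% of all genes, and the 3 without DKO replicate 1 (5.88%) beside 6.70%. Of the 19 genes followed through all settings, chosen in part for small p, Eif3a alone changed sign. Its log2 fold change was 0.070 with limma-voom and ran from −0.26 to 0.067 with a pool left out. It was positive without DKO replicate 1 or wild-type replicate 4, and the cause was not tested. Members outside the 19 also changed sign without DKO replicate 1, for example Eif3c (from −0.07 to 0.04) and Eif2b3 (from −0.14 to 0.05). Scaling by library size alone moved the median of all genes to 0.07 and that of the family to −0.12. Equal replicate numbers did not pair the pools: the deviations of same-numbered pools correlated at 0.00235, 0.0174, 0.0343 and 0.0780, and pools did not always correlate best with their own number. With the replicate block, 0 members were called and the median was −0.17. With 4 pools a group, and DKO replicate 1 standing apart, no member passed the threshold. Whether differences of the size seen here could be detected with these pools was not tested.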
